A study of Mus musculus with 2 samples.

Results

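Zinc finger genes and Kruppel-like factors were followed in cultured primary osteoblasts of the mouse, cells that lay down bone, with or without the growth factor TGF-beta1. Members were chosen by the gene name beside each spot of the array: 66 probes carried the words zinc finger or Kruppel, and 2 of them were left out because their names also held homeobox wording, which left 64 of 3757 probes. Both groups were starved of serum, with 0.2% fetal bovine serum in alphaMEM medium. The untreated group had 0 ng/ml of added TGF-beta1, and the treated group had 2 ng/ml for 24 h. Each group was 1 sample of total RNA on 1 array of its own, labelled with Cy3. The sources used here do not give the strain or age of the mice or how many were pooled. With 1 array per group there was no spread between replicates, no test was run, and every difference below is between these 2 arrays.

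A zinc finger is a small protein fold held together by a zinc ion. In the large C2H2 class, rows of such fingers read DNA, and these proteins make up the largest family of transcription factors in mammals. Kruppel-like factors end in C2H2 fingers that bind GC-rich and CACCC-type DNA. BTB zinc finger factors join the fingers to a domain for pairing and for recruiting corepressors, and many numbered zinc finger genes carry a KRAB repressor domain. Other proteins use zinc-binding folds to bind RNA, membranes or the ubiquitin machinery. TGF-beta signals through Smad proteins, and in several cell types it is known to induce Klf10 and factors of the Snail and Zeb families.

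A spot was called detected when its deposited intensity exceeded 87.4, the authors' signal threshold, which their files set at the maximum of the lambda control spots, each a mean of both arrays. Intensities are in arbitrary units on a linear scale. The log2 ratio is the treated over the untreated intensity with nothing added. Summed over all probes, the intensity was 427889 on the untreated and 431093.5 on the treated array, and 924 and 866 probes were detected. The 8 lambda spots had an SD of 0.20 in log2 ratio, which is a rough scale for dim spots and not an error of any gene. Of the osteoblast markers 6 of 7 on the array were detected. Summed over all 7, detected or not, the intensities were 3509.2 untreated and 2927.3 treated. On the treated array 5 of the 6 were lower, where 50.4% of all detected probes were. Of these, Bglap and Col1a2 hardly differed, with log2 ratios of -0.010 and -0.052. Relative to the median of their block of the array, Bglap (0.22), Alpl (0.35), Sparc (0.14) and Col1a2 (0.05) were higher. So were 62.6% of all detected probes, and these few markers are not set apart from that share. Relative to the spots up to 2 rows and 2 columns away, Col1a2 turned to -0.014, while Bglap, Alpl and Sparc stayed higher. Ibsp and Cdh11, both detected on the untreated array only, stayed lower. Ibsp, the bone sialoprotein gene, chosen after its values were seen, had 239.9 untreated and 47.9 treated, at least 2.74-fold lower. Of muscle markers 3 of 4 were detected (1689.9 and 1417.0 summed), of neuronal markers 1 of 2 (818.0 and 1146.1), of myeloid and osteoclast markers 1 of 4 (230.4 and 209.2) and of adipocyte markers 0 of 2 (50.0 and 37.3). These sums also hold the markers under the threshold. No marker was at 0, and endothelial markers had 0 probes matched. The part of such signals in the values below was not tested. In RNA from a whole culture, fewer cells of a type and less RNA per cell cannot be told apart.

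The members were a mixed group by function. A current symbol was found for 60 of the 64 through the accession beside the spot, and 4 kept only the name in the file. Kruppel-like factors were 3 of the 64, so most of the group was other zinc finger genes. Of the 25 detected members, 6 are not sequence-specific DNA-binding factors: the splicing factor Sf1, the RNA-binding protein Zfr, the RING-domain proteins Znrf4 and Rnf112, the endosomal Rab5 effector Ankfy1 and the LIM-domain protein Zfp185. By the RefSeq promoter table of build GRCm38.p6, which held 51 of the 60 named members, chromosome 7 carried 15 members and chromosome 17 carried 7.

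Zbtb7b, Ankfy1 and Zfp68 were far brighter than the other members, and their promoters are shown because these are the members measured farthest above the threshold, 1 of them lower and 2 higher on the treated array. The sequences are from RefSeq, build GRCm38.p6, 250 bases before to 50 after a transcription start, printed 5′ to 3′ on the gene's strand. Capitals mark the GC box GGGCGG and the CACCC box, searched on both strands, so that the complement of the latter appears as GGGTG.
Zbtb7b: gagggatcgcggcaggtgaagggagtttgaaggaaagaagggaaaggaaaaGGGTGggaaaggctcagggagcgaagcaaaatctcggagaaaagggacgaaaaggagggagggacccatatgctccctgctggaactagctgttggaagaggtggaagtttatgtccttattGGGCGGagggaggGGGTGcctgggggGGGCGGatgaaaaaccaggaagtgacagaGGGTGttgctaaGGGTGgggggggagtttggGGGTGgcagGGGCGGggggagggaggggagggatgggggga
Ankfy1: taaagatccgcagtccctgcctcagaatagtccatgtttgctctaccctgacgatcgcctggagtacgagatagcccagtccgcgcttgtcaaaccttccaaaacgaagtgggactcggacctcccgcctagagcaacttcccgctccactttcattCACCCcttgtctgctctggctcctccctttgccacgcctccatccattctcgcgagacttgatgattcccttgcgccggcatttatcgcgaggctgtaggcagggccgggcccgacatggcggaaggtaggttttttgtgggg
Zfp68: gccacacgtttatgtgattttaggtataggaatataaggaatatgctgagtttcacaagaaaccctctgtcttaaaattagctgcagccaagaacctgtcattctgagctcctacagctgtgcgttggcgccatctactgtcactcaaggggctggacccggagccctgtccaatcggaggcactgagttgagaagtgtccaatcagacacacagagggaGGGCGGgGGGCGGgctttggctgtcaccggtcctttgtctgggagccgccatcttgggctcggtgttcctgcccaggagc
The Zbtb7b window lies at chr3:89393329-89393628 on the minus strand and belongs to the start the table lists ahead of another. It held 3 GC boxes and 5 CACCC boxes. The Ankfy1 window lies at chr11:72689752-72690051 on the plus strand, with 0 GC boxes and 1 CACCC box. The Zfp68 window lies at chr5:138619694-138619993 on the minus strand, with 2 GC boxes and 0 CACCC boxes. Over 1 window per gene, the GC box was found in 47.1% of 51 members and in 35.9% of 27025 genes, and the CACCC box in 62.7% and 56.7%. The median GC content of these windows was 56.7% in members and 52.7% in all genes. In the 3 windows shown 0 bases lay in both motifs. A match describes the letters only and shows no binding.

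Zinc finger members were detected more often than the average probe, and none passed a 2-fold difference. On at least 1 array 25 of 64 members (39.1%) were detected, against a background of 26.5% over all probes. Of these 20 were detected on both arrays, 3 on the untreated and 2 on the treated array only. Among the 20, 0 were at least 2-fold higher and 0 at least 2-fold lower with TGF-beta1, where 1.51% and 2.26% of the 795 probes detected on both arrays were. At 1.5-fold, 0 members were higher and 1 was lower, beside 7.17% and 8.18% of all probes. With so few members these counts do not set the group apart from the array as a whole.

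The direction was evenly split. Of the 20 members detected on both arrays 10 had higher and 10 had lower intensities on the treated array, where 53.2% of all such probes were higher and 46.8% lower. Their median log2 ratio was 0.0057, against 0.026 over all 795 probes, and their SD was 0.38 against 0.44. Over the 25 members detected on at least 1 array, 12 were higher and 13 lower, where 49.6% of all such probes were higher and 50.4% lower.

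**Figure D1:**
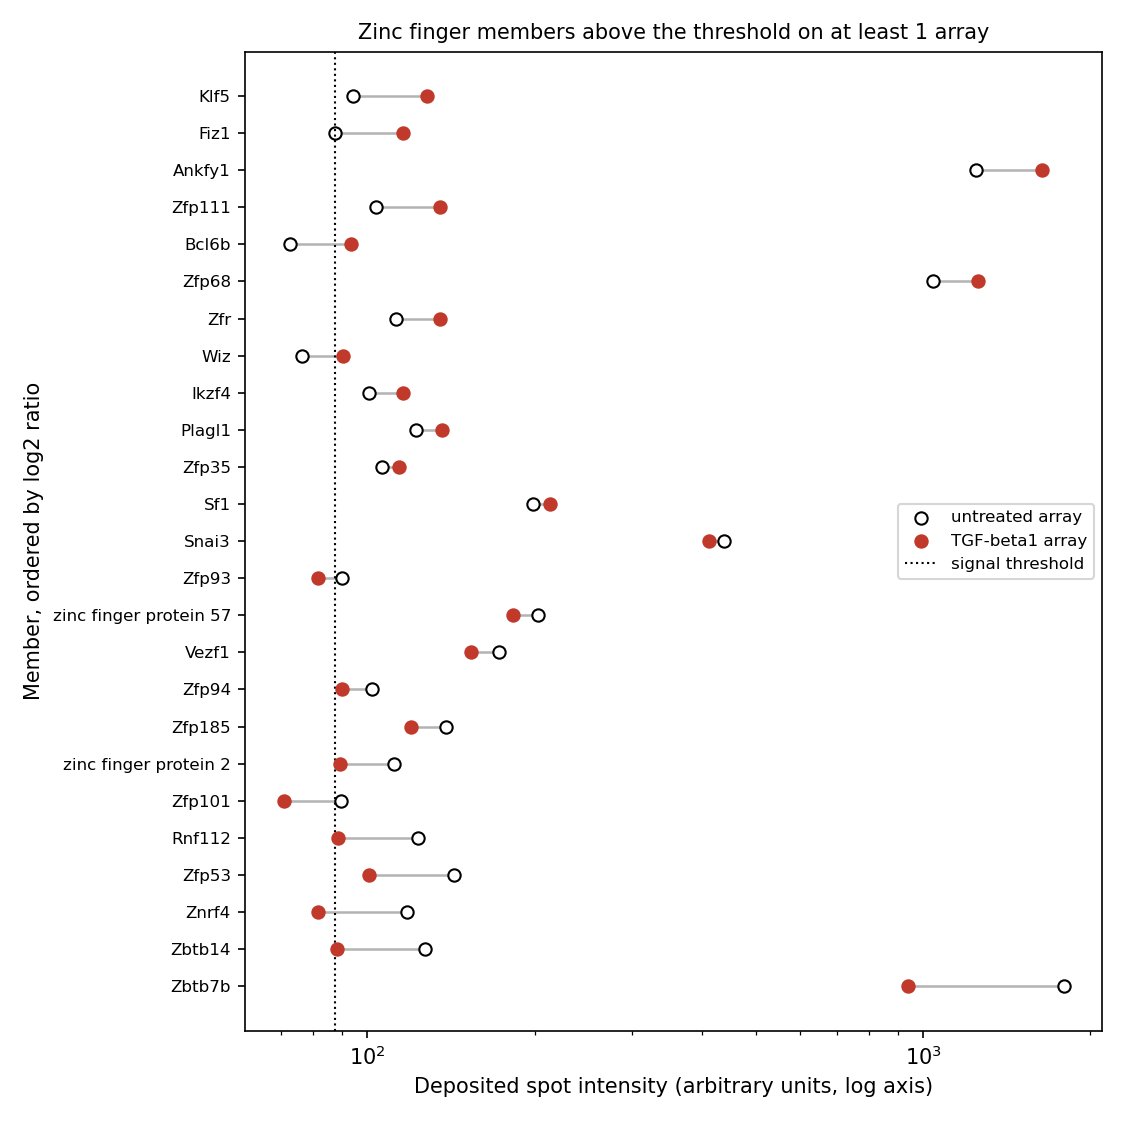
Deposited intensity (arbitrary units, log axis) of the 25 members detected on at least 1 array, ordered by log2 ratio, with open points for the untreated and filled points for the TGF-beta1 array and a dotted line at the threshold of 87.4. Most members lie just above the threshold, while Zbtb7b, Ankfy1 and Zfp68 lie between 940.4 and 1789.8, and the widest gap is that of Zbtb7b.

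The BTB factor Zbtb7b had the lowest log2 ratio of the detected members. Zbtb7b, also called cKrox or ThPOK, is known as a regulator of type I collagen genes in mouse skin and as the factor that directs thymocytes to the CD4 lineage. The spot read 1789.8 without and 940.4 with TGF-beta1. The treated value was thus 1.90-fold lower, a log2 ratio of -0.93. The spot lay in block E2, whose other probes had a median log2 ratio of -0.24. Relative to the median of its block the log2 ratio was -0.66. Relative to the neighbouring spots, up to 2 rows and 2 columns away and partly members, it was -0.62. After quantile normalization it was -1.05 and after loess -1.08, so that it passed 2-fold under these scalings only of the 9 alternatives tried.

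The other BTB members were near or under the threshold. Zbtb14, a repressor first described at the Myc promoter, had 127.2 untreated and 88.1 treated, with a log2 ratio at -0.53, and the treated value was barely above the threshold. It lay in the same block as Zbtb7b, and its log2 ratio was -0.26 after the block median. Bcl6b, a close relative of the repressor Bcl6, had 72.6 untreated and 93.7 treated. It was detected on the treated array only, at least 1.07-fold higher. Zbtb17, the Myc partner also called Miz1, was under the threshold on both arrays, as were Zbtb18 and Zbtb20, all 3 named outside the rule and after their values were seen. In the list of BTB zinc finger factors, 10 of 23 genes were on the array and 4 were detected, 2 higher and 2 lower, with 0 past 2-fold in either direction.

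Klf5 had the highest log2 ratio of the detected members in the deposited values. Ikzf4 was above it relative to block medians, Bcl6b after loess and Ankfy1 and Zfp68 with an offset added. Klf5 is a Kruppel-like activator of proliferating epithelial and vascular smooth muscle cells. The spot read 94.4 untreated and 128.2 treated. This was a 1.36-fold higher value, a log2 ratio of 0.44, from an untreated signal just above the threshold. Its log2 ratio was 0.49 against the block and 0.77 against the neighbours. It was 0.24 with an offset of 96.7 added to both signals.

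The remaining Kruppel-like factors were not measured above background. Klf9, a glucocorticoid-responsive factor, had 36.0 and 23.5, and Klf12, a repressor, had 32.8 and 31.6. All 4 values lay under the threshold, so no fold is given. In the list of Kruppel-like and Sp factors 4 of 25 genes were on the array and 1, Klf5, was detected. The list of zinc finger genes known to respond to TGF-beta had 14 genes, of which 3 were on the array and 0 were detected. Klf10, the factor known as the TGF-beta inducible early gene, was among them with 28.5 untreated and 23.4 treated. A treated signal above the threshold would have been counted as detected, and none of the 3 reached it, while smaller changes and decreases were not measurable for these genes. Of the lists of early growth response and of Gli, Zic and Glis factors 0 genes were matched to probes, and they are not analysed here.

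Several other named C2H2 factors were detected, all with differences under 1.5-fold. Snai3, the third Snail-family repressor, was the brightest of them, with 438.2 untreated and 411.7 treated, giving a log2 ratio of -0.09. After subtraction of the block median its log2 ratio was 0.13, so the sign turned. Vezf1, a factor needed for vessel formation, had 172.5 and 153.6, a log2 ratio of -0.17. Plagl1, an imprinted regulator of the cell cycle and apoptosis also called Zac1, had 122.3 and 136.1, a log2 ratio of 0.15.

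Ikzf4, the Ikaros-family factor Eos of regulatory T cells, had 100.7 untreated and 116.0 treated, giving a log2 ratio of 0.20. It lay in block E4, whose other probes had a median of -0.56. Relative to its block the log2 ratio of Ikzf4 was 0.75, and relative to its neighbours 0.65. Fiz1, which binds the receptor Flt3, had 87.5 and 116.0, a log2 ratio of 0.41, with the untreated value at the threshold. Wiz, a partner of the G9a histone methyltransferase complex, had 76.3 and 90.6. It was detected on the treated array only, at least 1.04-fold higher.

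Of these 6 named factors 4 had higher and 2 had lower values on the treated array, or 5 and 1 relative to their blocks or to their neighbours. Of all detected probes 49.6% were higher as deposited, 62.6% relative to their blocks and 62.1% relative to their neighbours, and counts over 6 factors are not set apart from these shares. In the list of Gfi and Ikaros factors 4 of 7 genes were on the array and 3 were detected, all 3 higher, where 49.6% of all detected probes were, and 0 past 2-fold. In the list of Snail and Zeb factors 2 of 7 were on the array, and Snai3 was the 1 detected. In the list of insulator, PLAG, spalt and other C2H2 factors 13 of 34 were on the array, and the 3 detected were all higher, a count too small to read against that same 49.6%. Of the lists of CCCH RNA-binding proteins and GATA factors 1 of 10 and 2 of 7 were on the array, with 0 and 1 detected, the latter higher. None of these listed genes passed 2-fold.

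Numbered zinc finger genes, most of them without a described role in bone, also went both ways. Zfp68 was by far the brightest, with 1041.0 untreated and 1256.7 treated, a 1.21-fold higher value. Its log2 ratio of 0.27 was 0.32 after the block median and 0.31 after the neighbours, and it was 0.13 after loess. Zfp53 had 143.5 untreated and 100.7 treated, giving a log2 ratio of -0.51. It lay in block K2, whose median was close to 0, and it kept -0.47 and -0.55 after the position adjustments.

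Zfp111 had 103.6 untreated and 135.4 treated, giving a log2 ratio of 0.39, which was 0.42 and 0.36 after the same adjustments. Zfp35 had 106.1 and 114.1, and Zfp94 had 101.8 and 90.0, with log2 ratios of 0.10 and -0.18. Zfp101, with 89.8 and 71.0, was detected on the untreated array only and was at least 1.025-fold lower. Zfp93, with 90.1 and 81.6, was at least 1.03-fold lower in the same sense. Both lay next to the threshold on the untreated array. Of 7 detected numbered genes with a symbol 3 were higher and 4 lower, where 49.6% and 50.4% of all detected probes were. This became 4 and 3 relative to blocks and 5 and 2 relative to neighbours, beside 62.6% and 62.1% higher of all detected probes. The probes named zinc finger protein 57, with 202.6 and 183.3, and zinc finger protein 2, with 111.7 and 89.3, had no matched symbol. Numbered zinc finger genes have many close relatives, and signal shared between them was not separated.

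The detected members outside the DNA-binding factors included the brightest probe of the group. Ankfy1 had 1244.7 untreated and 1639.8 treated, a 1.32-fold higher value and a log2 ratio of 0.40, and by mean intensity it ranked 38 of all 3757 probes. It lay in block A3, where the other probes had a median of 0.15, and its log2 ratio was 0.25 after the block median and -0.05 after the neighbours. The sign turned under this 1 of the 9 alternatives. Sf1, which recognises the branch point of introns, had 198.7 and 213.2, a log2 ratio of 0.10. Zfr, a double-stranded RNA-binding protein, had 112.5 and 135.4, a log2 ratio of 0.27.

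Zfp185, a LIM protein linked to the actin cytoskeleton, had 138.6 untreated and 119.8 treated, giving a log2 ratio of -0.21. Rnf112, a RING-domain GTPase of brain, had 123.2 and 88.8, a log2 ratio of -0.47. Znrf4, a RING protein described in spermatids, had 117.7 and 81.6. It was detected on the untreated array only and was at least 1.34-fold lower, the largest bound of the 5 members detected on 1 array. All 3 lay in block E2, and after its median was subtracted the log2 ratio of Zfp185 was 0.056 and that of Rnf112 was -0.21. That of Znrf4, whose treated signal was under the threshold, went from -0.53 to -0.26.

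**Figure D2:**
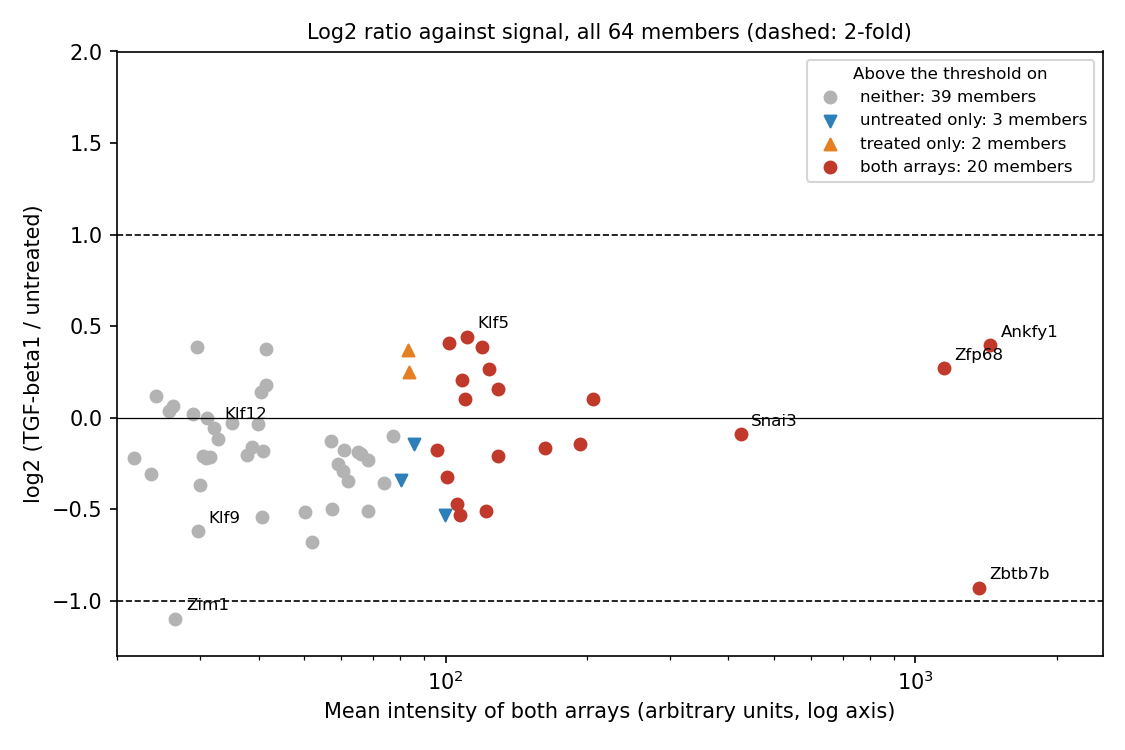
Log2 ratio of TGF-beta1 over untreated against mean intensity (arbitrary units, log axis) for all 64 members, coloured by the arrays on which each was detected, with dashed lines at 2-fold. The 20 members detected on both arrays lie between -0.93 and 0.44, and Zim1, under the threshold on both arrays, lies beyond the lower line.

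Of the members 39 were under the threshold on both arrays, with intensities from 23.2 to 83.0 untreated and from 17.0 to 74.7 treated. Taken by their mean signal as the rule for names sets, 5 of these were Zfp260 with 80.1 and 74.7, Zfp64 with 83.0 and 64.8, Zscan2 with 80.3 and 56.3, Zfp61 with 74.0 and 63.0, and Zfp105 with 70.6 and 61.5. In 30 of the 39 (76.9%) the treated intensity was the lower, where 65.8% of all 2762 probes under the threshold were. Block E2 held 9 of the 39. In that block 18 of all 19 members were lower at any signal, and so were 48 of its 60 other probes. Signals under the threshold give no order of the genes, so these values are not ranked. Zim1, chosen after its values were seen, had 36.3 and 17.0, and both values lay under the threshold.

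Place on the array moved with the log2 ratios of the members. The array had 48 blocks of up to 79 probes, with block medians of the log2 ratio from -0.84 to 0.15, and members lay in 23 of them. On the array 19 members lay in block E2 and 13 in block K3, most of them side by side, with Znrf4 in E2 and Wiz and Baz1b in K3 apart. In E2, 9 of the 10 detected members were lower on the treated array, and so were 20 of the 27 detected probes of that block that are no members. The median log2 ratio of the detected was -0.33 for members and -0.21 for the others. With probes detected on 1 array set at the lower bound of their fold, these medians were -0.27 and -0.13.

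Outside E2 the balance was the other way, in a split chosen after the data were seen. Leaving out a block whose detected members were mostly lower raises the share higher in the rest. There 11 of 15 detected members were higher and 4 lower, with a median log2 ratio of 0.25. The 943 other detected probes outside E2 split into 475 higher and 468 lower around a median of 0.003. With probes set at the lower bound of their fold as in E2, these medians were 0.10 and 0.003. Among probes detected on both arrays they were 0.24 and 0.030. Relative to block medians 12 of these members were higher and 3 lower, beside 592 higher and 346 lower of the other probes. A count over 15 members picked in this way is not set apart from these shares. In K3 all 4 detected members were higher, with a median of 0.18. The 15 other detected probes of K3 split into 8 higher and 7 lower, with a median of 0.046. With probes set at the lower bound of their fold the K3 medians were 0.103 and 0.046. Among K3 probes detected on both arrays they were 0.104 and 0.103, so members and others hardly differed there. Detection also differed by block: in E2 52.6% of members and 45.0% of the other probes were detected, and outside E2 33.3% of members and 26.0% of the others.

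**Figure D3:**
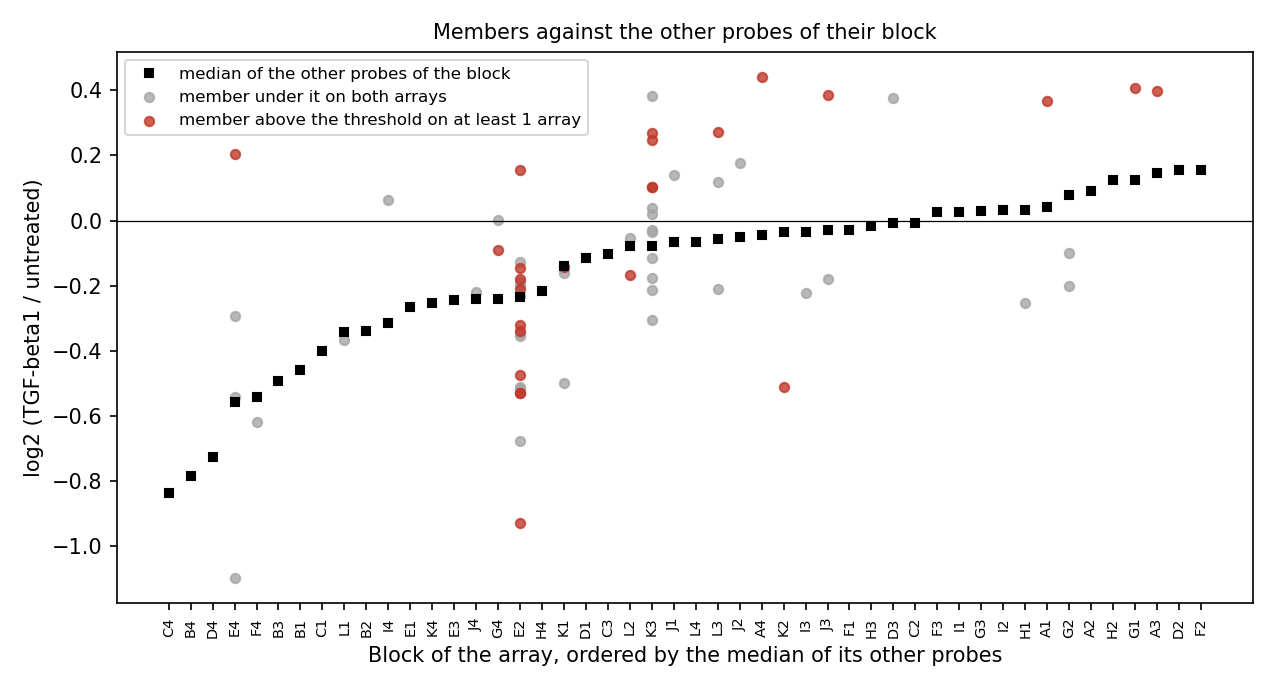
Log2 ratio of each of the 64 members in its block of the array, red where detected on at least 1 array, with black squares for the median of the other probes of each of the 48 blocks. The 19 members of block E2 lie mostly around or under the negative median of that block, and the 13 of block K3 lie around a median close to 0.

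After the block median was subtracted, 16 of the 25 detected members were higher and 9 lower, a share of 36.0% lower where all detected probes had 36.9%. After subtraction of neighbour medians it was again 16 and 9, beside a background of 37.9%. Neighbour medians left out only the spot itself, so in E2 and K3 members were set partly against other members. Both adjustments also moved the typical detected probe. The median of all probes detected on both arrays rose by 0.13 with block medians and by 0.15 with neighbour medians. Relative to that, the members differed by -0.019 and 0.036, and by -0.020 before adjustment. With block medians taken without the members the difference was 0.012. After block medians 1 member, Ikzf4, was at least 1.5-fold higher, where 13.8% of all probes were, and 1, Zbtb7b, was at least 1.5-fold lower, where 5.28% were.

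**Figure D4:**
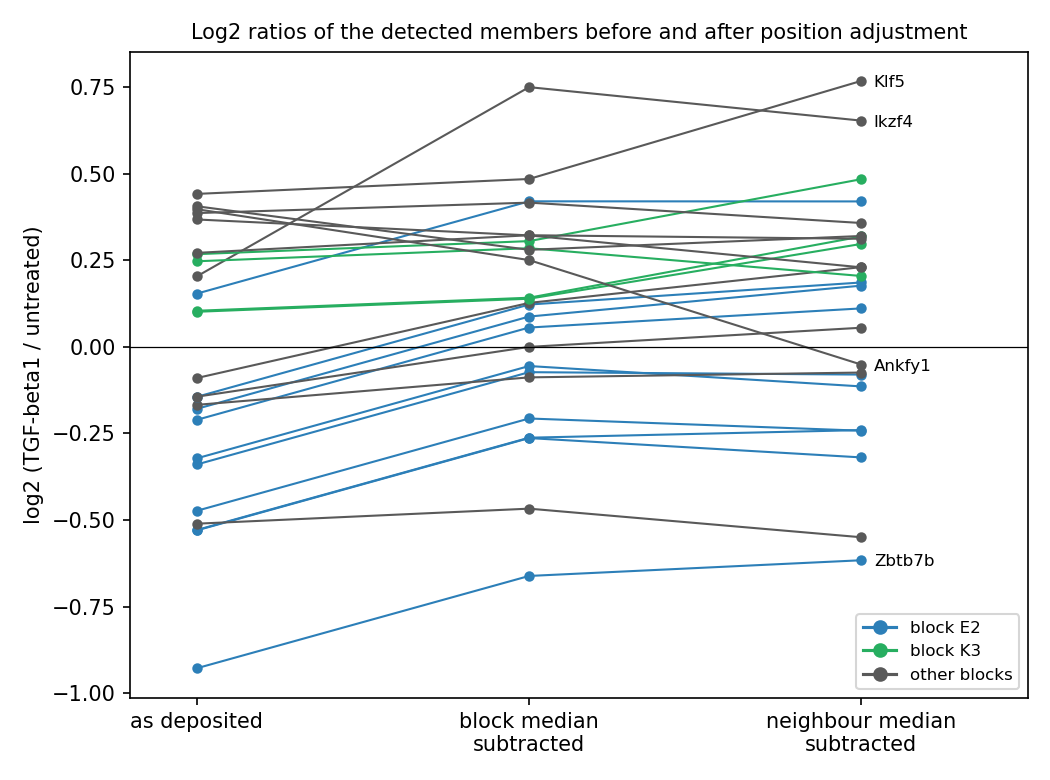
Log2 ratio of the 25 members detected on at least 1 array as deposited, relative to the block median and relative to the neighbours' median, with a line per member coloured by block. Members of block E2 move up together, Zbtb7b stays lowest at -0.62, Klf5 reaches 0.77 and Ankfy1 falls from 0.40 to -0.05.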

How the data were processed

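Linear spot intensities were read from the deposited value table. The file headers name their normalization as global, and credit the workbook to Atlas Iris 1.01 and the array to Atlas Glass Mouse 3.8. Negative or zero values (3 treated intensities) show that something was subtracted before deposit, and the sources used here do not say how. Left out were 17 control spots without identifiers, of 3774 in all. The deposited workbook and the authors' deposited ratio list were joined by row, since their ratios were equal throughout, and the ratio equalled the quotient of the deposited intensities within 0.0001 for 3754 of 3754 probes (3 had none). In 8 sheets 16 columns of per-sample values matched no sample label and were not used.

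Members, lists, roles and tests were chosen with earlier results of these data known. The rule for names took all members detected on at least 1 array, the 5 brightest others and the Kruppel-like and Sp factors. A member detected on 1 array got a lower bound of its fold, the bright signal over the higher of its own dim signal and the lowest detected signal of the dim array. Symbols came from RefSeq, assembly GRCm38.p6, used for names. The functional grouping of members was written by hand. Alternatives were quantile, median, total-signal and loess scaling (span 0.4), the offset of 96.7, which was the 10th percentile of detected signals, position adjustments (subtracting the median of the block, or of neighbouring spots), other filters and a 1.5-fold threshold. Calculations used Python 3.11.15, pandas 2.3.3 and statsmodels 0.14.6 and were tested on simulated data. Block medians taken without members, leaving out block E2 and members set at their bound were added after seeing the data. Precision is limited by the 2 arrays, with a single spot per probe.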

Additional observations from a re-analysis of the deposited data

How the results depend on the processing

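The count of members at least 2-fold higher was 0 under every alternative tried, and the count lower was 0 except for 1 after quantile normalization and 1 after loess, both Zbtb7b, 1 with no filter, which was the dim Zim1, and 1 at a 1.5-fold threshold, again Zbtb7b. The median log2 ratio of members detected on both arrays, 0.0057, lay so near 0 that it turned to -0.0051 after division by the summed signal, -0.0089 with the offset, -0.17 with no filter and -0.090 at 1.5 times the threshold. It moved to 0.13 with block medians, 0.21 with neighbour medians, 0.16 with block medians without members and 0.24 without block E2, the last 2 chosen after the data were seen. Over members detected on at least 1 array the median of -0.090 turned to 0.0515 after loess, 0.13, 0.19 and 0.15 under these 3 position adjustments, 0.25 without block E2, 0.15 over listed C2H2 factors and 0.0057 at 1.5 times the threshold. With members set at their bound this median was -0.035, and without block E2 it was then 0.10. Of the 25 detected members, the sign turned for 4 under block medians (Zfp185, Zfp94, Snai3 and the probe named zinc finger protein 57), for 6 under neighbour medians (these with Ankfy1 and Zfp93) and for 1 after loess (Zfp93). No paired analysis was possible because each group had 1 sample, and no replicate could be left out for the same reason.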

Other observations

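Zinc finger factors whose array names lack the words zinc finger were not among the members. The 10 lists, chosen with earlier results of these data known, placed 20 probes that were no members on the array. These include Zeb2, which was left out for the homeobox wording in its name. Of the 20, 6 were detected on at least 1 array. All 6 had higher intensities with TGF-beta1, and they stayed higher after loess and relative to block or neighbour medians. Of all probes detected on at least 1 array 49.6% were higher in the deposited values, 50.9% after loess, 62.6% relative to block medians and 62.1% relative to neighbour medians. Their log2 ratios ran from 0.22 to 0.64 with a median of 0.44, which was 0.395 and 0.416 relative to block and neighbour medians. Gfi1 entered these values with 0.34, although its untreated signal was under the threshold and its bound was only 1.05-fold. All 6 were already counted in the lists above, and a count over 6 genes is too small to read against these shares. No test was possible with 1 array per group.

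Ovol1, a regulator of epithelial differentiation, was the brightest, with 2101.7 untreated and 3068.9 treated, a 1.46-fold higher value. Hic1, a BTB repressor, had 164.5 and 256.4, a 1.56-fold higher value. Osr1, an odd-skipped factor of kidney and connective tissue development, had 174.8 and 257.0, a 1.47-fold higher value. Gfi1b and Gata5, factors of blood and heart development, had log2 ratios of 0.24 and 0.22. Gfi1b had 92.2 untreated and 109.2 treated, and Gata5 had 100.7 and 117.4, not far above the threshold. Gfi1, with 72.7 and 91.9, was detected on the treated array only, at least 1.05-fold higher. No member or listed zinc finger factor detected on both arrays passed 2-fold in the deposited values.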
